A study of Mus musculus with 6 samples.

Results

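The genes described here serve cholesterol synthesis, its control, sterol transport and lipoprotein assembly, in crypt cells purified from the mouse colon. They comprise 30 genes chosen by name and every gene whose symbol has the form of an apolipoprotein name (Apoa to Apoo), which added 29. The 59 genes stand among 55487 in the deposited tables. Of the 59, 48 had enough counts to be tested and 11, all apolipoproteins, did not. The 3 control libraries came from C57BL/6 mice of genotype M14(f/f) at 4 weeks of age, which carry loxP-flanked M14 alleles. The 3 mutant libraries came from M14(f/f);Villin-Cre mice of the same strain and age. Controls therefore carry the flanked alleles too, and lack Cre, so effects of Cre itself and of deletion cannot be told apart. Villin-Cre acts in the gut epithelium and leaves other cells of the preparation with the intact gene. M14 was taken to mean Mettl14, the gene of a subunit of the RNA m6A methyltransferase.

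Cholesterol is built from acetyl-CoA through mevalonate, farnesyl diphosphate, squalene and lanosterol. The transcription factor SREBP-2 raises the genes of this route when the endoplasmic reticulum is poor in sterol, with Scap as its escort and Insig proteins as its anchors. In the intestine, cholesterol enters through Npc1l1, is esterified by Soat enzymes, leaves to the lumen through the Abcg5 and Abcg8 pair, and leaves to the blood on lipoproteins built around Apob. The question addressed is which of these transcripts differed between mutant and control crypts.

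The libraries held between 24181631 and 35183636 counts each. With 3 counts as the limit, a count of 0 allows up to 0.120 CPM in the library with the lowest scaled depth and 0.0819 CPM in that with the highest, which covers counting error only. CPM is the count of a gene divided by the TMM-scaled library total, in edgeR's usual unit, and values are always listed for libraries 1, 2 and 3 of a group in that order. Mettl14 stood at 26.1, 20.8 and 22.0 CPM in controls and 14.0, 13.8 and 10.5 CPM in mutants and the groups did not overlap (log2 fold change -0.85, SE 0.13, adjusted p = 6.22e-04, edgeR). Mutant 1 and mutant 2 stood apart in sex-linked genes. Xist stood at 651, 53.0 and 1.501 CPM in mutants and at 1.28, 1.30 and 1.77 CPM in controls, and the Y-linked gene Eif2s3y at 0.502, 64.0 and 67.3 CPM and 72.3, 80.5 and 67.9 CPM. Mutant 1 thus lacked Y-linked signal, and mutant 2 held transcripts of both kinds. A fit without mutant 1 and mutant 2 rests on mutant 3 alone, assumed to vary like the controls. That fit is given where it removed a call and beside some other results. The epithelial genes Epcam, at 2178 ± 101 CPM in controls against 1617 ± 185 in mutants (SD, n = 3), and Vil1, at 872 ± 34.0 against 676 ± 73.1 CPM, were abundant, as the tissue label implies. Both were lower in mutants (adjusted p = 0.00870 and adjusted p = 0.0115), and of 8 epithelial markers 4 fell, 1 rose (Cdh1) and 3 did not pass. Over all tested genes 22.8% fell and 23.5% rose. Of the 8 hepatocyte markers, Alb was at most 1.40 CPM in any library and Serpina1a was at 0, 0.0593 and 0.0322 CPM in controls and 0 in all mutants. Tat and Ttr of the same list were well above the floor, and Tat rose, as given under Other observations. The summed level of the list was 65.1, 52.8 and 62.7 CPM in controls and 61.5, 126 and 127 CPM in mutants. The submitters describe 3 pairs of animals without tying any library to one of them, so the p-values measure the spread between these libraries. The 3 mutants differed in the sex-linked genes above, so they were not repeats of 1 RNA sample. For the controls the spread may be technical.

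Among the 48 tested genes 8 rose, 16 fell and 24 did not pass an adjusted p of 0.05 in edgeR's quasi-likelihood test. Over all 18539 tested genes 23.5% were called higher, 22.8% lower and 46.3% either way. The 24 calls among 48 genes are therefore near the share for all genes, with more falls and fewer rises than that share. Their median log2 fold change was -0.17, against 0.0063 over all tested genes. All mutants lay below all controls for 16 of the 48 genes and above them for 9, and groups without overlap made up 56.9% of all tested genes. By more than 2-fold, 6 of the 48 rose (Abcg1, Npc1l1, Apoa5, Apod, Apoe and Apol10b) and 3 fell (Abcg8, Apoa1 and Apob). Without mutant 3, 9 fell in place of 16, and without mutant 1 and mutant 2, 5 rose in place of 8. With library totals in place of TMM scaling, 10 fell, and that scaling moved the median over all genes to 0.0784.

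Genes of the synthesis enzymes fell modestly and not as a block. Of 17 enzyme genes, all tested, 8 fell, 1 rose and 8 did not pass. These counts stand against shares of 22.8% lower and 23.5% higher over all genes, and the median log2 fold change of the enzymes was -0.25. No enzyme moved by 2-fold. The falls were spread along the route from Hmgcs1 at its head to Nsdhl. The genes placed after Nsdhl (Hsd17b7, Ebp, Sc5d and Dhcr7) did not pass. In bulk RNA, fewer cells of a type and less RNA per cell cannot be told apart, here and below. The summed level of the 17 genes was 929.9, 962 and 936 CPM in controls and 804, 937 and 827 CPM in mutants. Mutant 2 lay inside the control range of that sum, and the other mutants lay below it. Of the 8 epithelial markers 4 fell as well, with a median log2 fold change of -0.30 over the list and summed levels of 11737, 10326 and 10780 CPM in controls and 8113, 9808 and 9696 CPM in mutants. The absorptive colonocyte markers had a median of -0.97 over 10 genes. No marker of either list was at 0 in any library, and their part in the enzyme values was not tested.

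At the head of the route, Hmgcs1 (ENSMUSG00000093930.2, chr13:119690379-119708260, plus strand, GRCm38) makes HMG-CoA from acetyl units. It stood at 164, 190.3 and 171 CPM in controls and 136, 163 and 138 CPM in mutants. All mutants lay below all controls, with mutant 2 almost level with control 1 (log2 fold change -0.26, SE 0.093, adjusted p = 0.0411). Among the kinases and the decarboxylase that turn mevalonate into isoprenoid units, Mvd fell and the others did not pass. Mvd (ENSMUSG00000006517.5, chr8:122433601-122443422, minus strand) stood at 29.1, 27.8 and 28.9 CPM in controls and 18.2, 26.1 and 18.8 CPM in mutants, so mutant 2 was close to the controls and the other mutants were well below (log2 fold change -0.45, SE 0.13, adjusted p = 0.0177). Mvk stood at 19.3, 18.6 and 20.4 CPM in controls and 17.2, 19.1 and 16.3 CPM in mutants (adjusted p = 0.225), and Pmvk at 22.6, 19.0 and 22.8 CPM in controls and 26.0, 27.3 and 22.4 CPM in mutants (adjusted p = 0.0962). Both overlapped between groups, and Pmvk leaned upward (log2 fold change 0.23). Without mutant 3 Pmvk passed as higher (adjusted p = 0.0467).

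Isoprenoid assembly came next. Idi1, the isomerase of isopentenyl diphosphate, stood at 3.05, 3.44 and 4.13 CPM in controls and 2.47, 1.88 and 2.48 CPM in mutants, below controls in each mutant and lowest in mutant 2 (log2 fold change -0.63, SE 0.21, adjusted p = 0.0316). Fdps, which joins these units to farnesyl diphosphate, stood at 8.38, 8.30 and 7.22 CPM in controls and 7.45, 7.99 and 7.12 CPM in mutants, with overlap and no call (adjusted p = 0.621). Both levels are uncertain, since 25.3% of the 50-base words of Idi1 transcripts and 26.2% of those of Fdps also occur in other annotated genes, and reads with several alignments were not counted. Per length, they were the lowest of the enzymes in controls, at 1.01 ± 0.156 and 1.89 ± 0.154 RPKM (CPM per kilobase of exon length in the files, SD, n = 3). Hmgcs1 was the highest, at 38.1 ± 2.97 RPKM.

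Squalene synthase was the exception among the enzymes. Fdft1 (ENSMUSG00000021273.11, chr14:63145150-63179578, minus strand), which commits farnesyl diphosphate to sterols, stood at 65.5, 72.6 and 71.0 CPM in controls and 86.0, 95.3 and 91.6 CPM in mutants. Every mutant lay above every control (log2 fold change 0.39, SE 0.073, adjusted p = 0.00199). The call held without each library in turn, with log2 fold changes of 0.33 to 0.41. The last exon of Fdft1 overlaps the end of Ctsb on the other strand, and 26.5% of its 50-base words lie in another gene, mostly Ctsb. Ctsb, a lysosomal protease gene, stood at 276, 263 and 258 CPM in controls and 269, 304 and 315 CPM in mutants (adjusted p = 0.147). Its part in the Fdft1 values was not tested, and counting used the strand.

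From squalene to lanosterol and past it, the falls were of similar size. Sqle, the epoxidase that is a control point of the route, stood at 83.2, 98.9 and 83.9 CPM in controls and 72.0, 79.7 and 64.0 CPM in mutants, lowest in mutant 3 (log2 fold change -0.30, SE 0.10, adjusted p = 0.0320). Lss, which closes the ring to lanosterol, stood at 40.2, 49.1 and 46.7 CPM in controls and 37.4, 32.8 and 29.0 CPM in mutants (log2 fold change -0.46, SE 0.11, adjusted p = 0.00663). For both genes every mutant lay below every control. Cyp51 (ENSMUSG00000001467.5, chr5:4081145-4104746, minus strand), the lanosterol demethylase, stood at 134, 131 and 137 CPM in controls and 98.7, 107 and 91.5 CPM in mutants. Its groups were well apart, and it had the smallest adjusted p of the enzymes (log2 fold change -0.44, SE 0.076, adjusted p = 0.00121). Tm7sf2, a sterol reductase, stood at 14.3, 11.4 and 13.3 CPM in controls and 8.53, 8.99 and 8.95 CPM in mutants, with little spread among the mutants (log2 fold change -0.56, SE 0.12, adjusted p = 0.00347).

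The last steps did not share a direction. Nsdhl, the X-linked sterol dehydrogenase, stood at 39.98, 36.2 and 34.9 CPM in controls and 32.1, 32.2 and 28.2 CPM in mutants and fell (log2 fold change -0.27, SE 0.084, adjusted p = 0.0274). Its partners in removing the methyl groups of lanosterol did not pass, with Msmo1 at 95.4, 97.1 and 94.6 CPM in controls and 84.7, 115 and 103 CPM in mutants (adjusted p = 0.573) and Hsd17b7 at 16.2 ± 0.939 and 16.1 ± 1.45 CPM (adjusted p = 0.948). Mutant 1 was lowest of all libraries for Msmo1 and mutant 2 was highest, so that the spread of the mutants covered the controls. The isomerase gene Ebp (75.5 ± 3.55 and 81.0 ± 8.59 CPM, adjusted p = 0.362) and the desaturase gene Sc5d (58.7 ± 3.36 and 60.1 ± 6.90 CPM, adjusted p = 0.782) also had their lowest value in mutant 1 and overlapping groups. Dhcr7, the reductase that gives cholesterol, stood at 54.0, 50.004 and 54.1 CPM in controls and 37.5, 51.2 and 44.0 CPM in mutants, with mutant 2 inside the control range and no call (adjusted p = 0.0761). Without mutant 2 Dhcr7 passed as lower (adjusted p = 0.0136).

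Calls for Fdft1, Lss, Cyp51 and Tm7sf2 held without each of the 6 libraries. Hmgcs1 lost its call without control 2, control 3, mutant 1 or mutant 3 (adjusted p = 0.0719 to 0.125), and Idi1 without control 2, control 3, mutant 2 or mutant 3 (adjusted p = 0.0505 to 0.107). Sqle lost it without control 2 or mutant 3 (adjusted p = 0.101 to 0.111), Nsdhl without control 1 or mutant 3 (adjusted p = 0.0826 to 0.110) and Mvd without mutant 3 (adjusted p = 0.0706). Without mutant 3, 3 enzymes fell in place of 8, and 5 fell without control 2. With mutant 3 as the lone mutant, the log2 fold changes of Lss, Cyp51 and Sqle were -0.67, -0.58 and -0.50, and Idi1 lost its call (adjusted p = 0.180). With library totals in place of TMM scaling 4 enzymes fell and 2 rose.

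**Figure D1:**
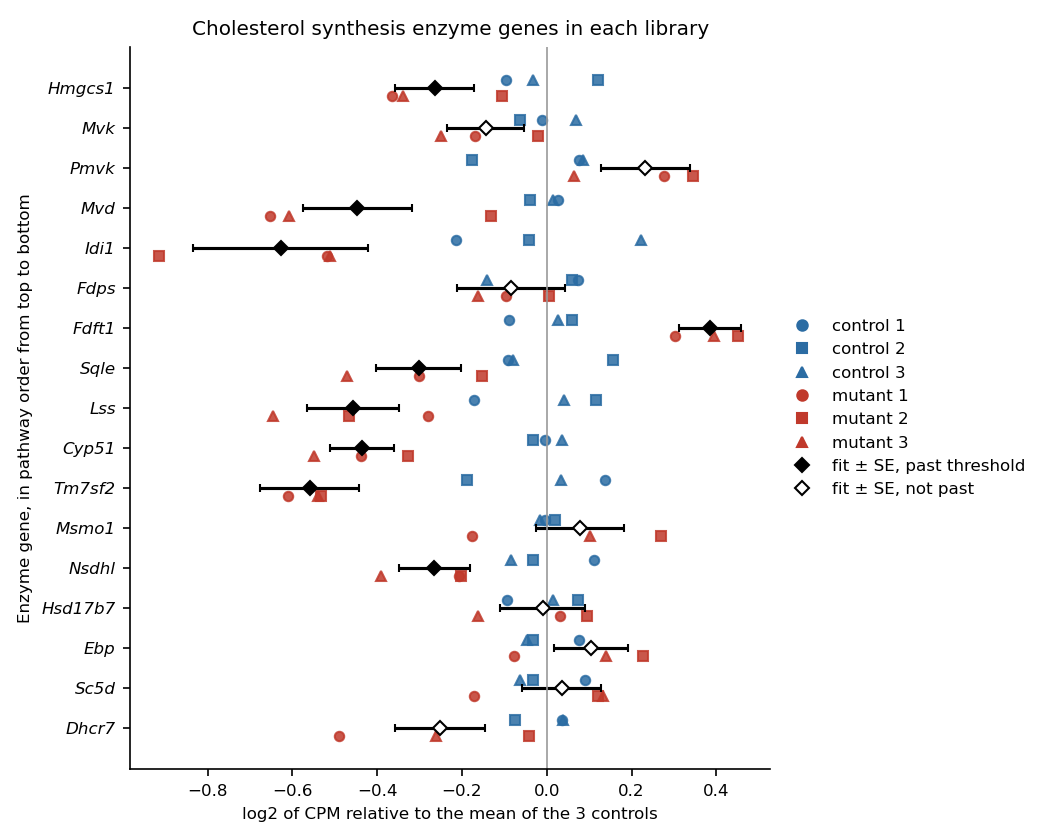
Each row is 1 cholesterol synthesis enzyme gene, in pathway order. Blue and red points give log2 of the CPM of each control and mutant library relative to the control mean, and diamonds give the fitted log2 fold change with its SE, filled where the adjusted p passed 0.05. The 8 filled diamonds to the left lie between -0.63 (Idi1) and -0.26 (Hmgcs1), and Fdft1 is the 1 filled diamond to the right.

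Promoter sequence shows what the enzyme genes share and what they do not. RefSeq windows on GRCm38.p6, from 250 bases before to 50 after each gene start, were matched by symbol for 48 of the 59 genes and 14 of the 17 enzymes. Among the enzymes Fdps, Fdft1 and Sqle were not matched, nor were Stard4, Abcg1, Soat2 and 5 apolipoprotein genes (Apoc1, Apoc3, Apof, Apol6 and Apol7d). A CCAAT box (CCAAT on either strand), the site of NF-Y, a known partner of SREBP at sterol-responsive promoters, was present for 14 of the 14 enzymes. It was present for 41.1% of all 27025 genes with a window and in 37.4% of all 32851 windows. Enzymes that fell and enzymes that did not pass held it alike, 7 of 7 and 7 of 7, so the motif did not separate them. Among SREBP control genes 4 of 5 held it, among sterol transport and storage genes 4 of 5, and among apolipoprotein genes 6 of 24. The core of the sterol regulatory element, searched as TCACNCCAC on either strand, was present for Hmgcs1 alone among the 48 genes, against 1.44% of all genes. The 2 motifs did not overlap there. A match is a description of letters and not of a bound site, and a missing match says only that these letters are not in the window.

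The windows below are shown for an enzyme with both motifs (Hmgcs1), 2 other enzymes that fell (Mvd and Cyp51), 1 that did not pass with 3 boxes (Msmo1), and the factor gene Srebf2. They run 5′ to 3′ along the strand of the gene, and capitals mark the motifs.
Hmgcs1, chr13:119690101-119690400, plus strand: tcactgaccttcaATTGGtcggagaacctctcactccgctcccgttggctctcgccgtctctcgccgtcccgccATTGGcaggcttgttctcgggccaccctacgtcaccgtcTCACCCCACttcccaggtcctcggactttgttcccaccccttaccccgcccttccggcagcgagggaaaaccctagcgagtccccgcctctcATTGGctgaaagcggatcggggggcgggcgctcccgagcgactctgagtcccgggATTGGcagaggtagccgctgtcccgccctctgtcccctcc
Mvd, chr8:122443373-122443672, minus strand: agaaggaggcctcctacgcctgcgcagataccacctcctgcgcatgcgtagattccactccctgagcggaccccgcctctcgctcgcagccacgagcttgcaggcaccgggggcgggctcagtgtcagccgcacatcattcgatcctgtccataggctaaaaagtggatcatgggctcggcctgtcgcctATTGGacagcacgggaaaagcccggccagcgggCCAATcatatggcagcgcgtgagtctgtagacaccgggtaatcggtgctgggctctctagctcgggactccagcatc
Cyp51, chr5:4104648-4104947, minus strand: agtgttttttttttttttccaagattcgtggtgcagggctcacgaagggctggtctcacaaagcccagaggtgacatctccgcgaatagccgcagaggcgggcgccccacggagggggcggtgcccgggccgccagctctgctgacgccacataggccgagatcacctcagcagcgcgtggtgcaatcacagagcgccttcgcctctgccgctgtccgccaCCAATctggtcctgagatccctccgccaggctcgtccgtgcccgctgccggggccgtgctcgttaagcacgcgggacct
Msmo1, chr8:64733529-64733828, minus strand: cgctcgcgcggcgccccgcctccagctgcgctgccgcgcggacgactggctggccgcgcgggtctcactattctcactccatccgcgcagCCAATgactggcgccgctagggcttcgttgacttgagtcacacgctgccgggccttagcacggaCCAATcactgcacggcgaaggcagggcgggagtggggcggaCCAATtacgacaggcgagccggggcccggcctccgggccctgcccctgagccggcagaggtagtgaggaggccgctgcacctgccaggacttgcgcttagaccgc
Srebf2, chr15:82147019-82147318, plus strand: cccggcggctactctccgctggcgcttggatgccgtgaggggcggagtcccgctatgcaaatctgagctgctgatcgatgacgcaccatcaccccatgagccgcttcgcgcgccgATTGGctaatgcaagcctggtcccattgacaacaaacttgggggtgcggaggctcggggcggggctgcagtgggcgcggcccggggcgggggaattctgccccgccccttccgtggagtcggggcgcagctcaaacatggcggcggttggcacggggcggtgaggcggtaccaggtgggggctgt
In Hmgcs1 the sterol element core begins 137 bases before the start, and ATTGG, the CCAAT box of the other strand, occurs 4 times. The window of Cyp51, which fell, holds 1 box, 29 bases before the start, and that of Msmo1, which did not pass, holds 3.

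Of the 5 genes that control SREBP, 2 fell and 3 did not pass, which is near the 46.3% called either way over all genes. Srebf2 (ENSMUSG00000022463.8, chr15:82147181-82205379, plus strand), which encodes SREBP-2, stood at 215, 216 and 216 CPM in controls and 158, 174 and 141 CPM in mutants. The controls were nearly equal, and every mutant was far below them (log2 fold change -0.45, SE 0.085, adjusted p = 0.00189, a 1.37-fold fall). The call held without each library, and with mutant 3 as the lone mutant the value was -0.64. Scap, the escort that carries SREBP to the Golgi, stood at 60.5, 50.6 and 53.8 CPM in controls and 48.2, 43.7 and 42.0 CPM in mutants, with every mutant below every control (log2 fold change -0.30, SE 0.087, adjusted p = 0.0179). It lost its call without control 1, mutant 2 or mutant 3 (adjusted p = 0.0512 to 0.0709). Srebf1, whose products favour fatty acid genes, stood at 79.6, 72.0 and 73.8 CPM in controls and 70.5, 73.4 and 63.8 CPM in mutants and overlapped (adjusted p = 0.239). Of the 2 anchors, Insig1 stood at 47.8, 30.1 and 42.1 CPM in controls and 27.5, 35.5 and 31.9 CPM in mutants (adjusted p = 0.106) and Insig2 at 38.8, 38.0 and 28.5 CPM in controls and 26.6, 32.6 and 39.0 CPM in mutants (adjusted p = 0.633). Control 2 was low for Insig1, and without it Insig1 passed as lower (log2 fold change -0.52, adjusted p = 0.00712).

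Of the 8 sterol carriers, transporters and esterification genes, 3 rose, 3 fell and 2 did not pass, beside shares of 23.5% higher and 22.8% lower over all genes. Stard4, a soluble carrier that moves cholesterol between membranes and is an SREBP-2 target, stood at 199.8, 207 and 203 CPM in controls and 172, 159 and 158 CPM in mutants. All mutants were lower, by an amount within the range of the enzymes that fell (log2 fold change -0.31, SE 0.069, adjusted p = 0.00463). Its level per length in controls, 36.4 ± 0.608 RPKM, lay beside the 38.1 ± 2.97 RPKM of Hmgcs1, within 1 SD of it.

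Calls for uptake and export had larger fitted changes than any enzyme. Npc1l1 (ENSMUSG00000020447.5, chr11:6211013-6230143, minus strand), the brush border protein that takes up dietary cholesterol, stood at 2.54, 4.002 and 2.74 CPM in controls and 6.41, 7.59 and 7.09 CPM in mutants. Mutants were higher throughout, a 2.27-fold rise (log2 fold change 1.18, SE 0.20, adjusted p = 9.70e-04). Abcg8 (ENSMUSG00000024254.15, chr17:84676302-84700333, plus strand), a subunit of the transporter that returns sterols to the lumen, stood at 2.28, 2.37 and 2.55 CPM in controls and 0.887, 0.999 and 1.56 CPM in mutants and fell 2.05-fold (log2 fold change -1.04, SE 0.26, adjusted p = 0.00868). With mutant 3 as the lone mutant, Abcg8 stood at -0.65 on the log2 scale and its call was lost (adjusted p = 0.141). Its obligate partner Abcg5 stood at 2.56, 2.58 and 3.90 CPM in controls and 1.54, 1.84 and 2.70 CPM in mutants. Mutant 3 lay inside the control range there, and the gene did not pass (log2 fold change -0.55, SE 0.27, adjusted p = 0.124). It passed as lower without mutant 3 (adjusted p = 0.0467). Abcg5 and Abcg8 are read from opposite strands, and their RefSeq promoter windows share 209 bases. The window of Abcg8, printed because most of it is also the window of Abcg5, holds 2 CCAAT boxes, in capitals. Its RefSeq start lies inside the longer gene interval of the deposited files.
Abcg8, chr17:84682871-84683170, plus strand: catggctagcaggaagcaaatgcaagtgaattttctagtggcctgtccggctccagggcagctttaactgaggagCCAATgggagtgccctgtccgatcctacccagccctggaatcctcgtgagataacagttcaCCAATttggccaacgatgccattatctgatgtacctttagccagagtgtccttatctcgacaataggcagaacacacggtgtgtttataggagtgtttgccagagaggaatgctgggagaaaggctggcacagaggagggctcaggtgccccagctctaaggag

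Abcg1 (ENSMUSG00000024030.7, chr17:31057675-31117988, plus strand), an LXR target that hands cholesterol to HDL, had the largest rise of the transport genes. It stood at 2.19, 2.43 and 3.03 CPM in controls and 6.98, 9.11 and 10.97 CPM in mutants, with every mutant more than 2-fold above every control (log2 fold change 1.83, SE 0.21, adjusted p = 9.34e-05, a 3.55-fold rise). Abca1, the other LXR-driven exporter, stood at 4.76, 7.71 and 5.74 CPM in controls and 5.40, 6.39 and 5.84 CPM in mutants, with all mutants inside the control range (log2 fold change -0.045, SE 0.19, adjusted p = 0.866). Macrophages express both exporters, and most of their markers were higher in mutants too, as given below for Apoe. Abcg1 was highest in mutant 3, whereas the summed level of the macrophage and dendritic cell markers was highest in mutant 2. The part of these cells in the Abcg1 values was not tested.

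The esterification genes moved apart. Soat2, the acyltransferase of intestine and liver, stood at 1.42, 1.72 and 1.68 CPM in controls and 2.78, 2.32 and 3.68 CPM in mutants and rose 1.83-fold (log2 fold change 0.87, SE 0.23, adjusted p = 0.0125). The call was lost without mutant 3, the highest library (adjusted p = 0.0609). Soat1, the widely expressed enzyme of the same reaction, stood at 56.2, 75.8 and 69.8 CPM in controls and 58.6, 51.6 and 49.1 CPM in mutants. It fell although mutant 1 overlapped control 1 (log2 fold change -0.34, SE 0.11, adjusted p = 0.0328), and lost its call without control 2, control 3, mutant 2 or mutant 3 (adjusted p = 0.0830 to 0.112). Per length, Soat1 exceeded Soat2 in controls, at 6.87 ± 1.02 against 0.726 ± 0.0718 RPKM, and in mutants, at 5.42 ± 0.501 against 1.32 ± 0.314 RPKM.

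**Figure D2:**
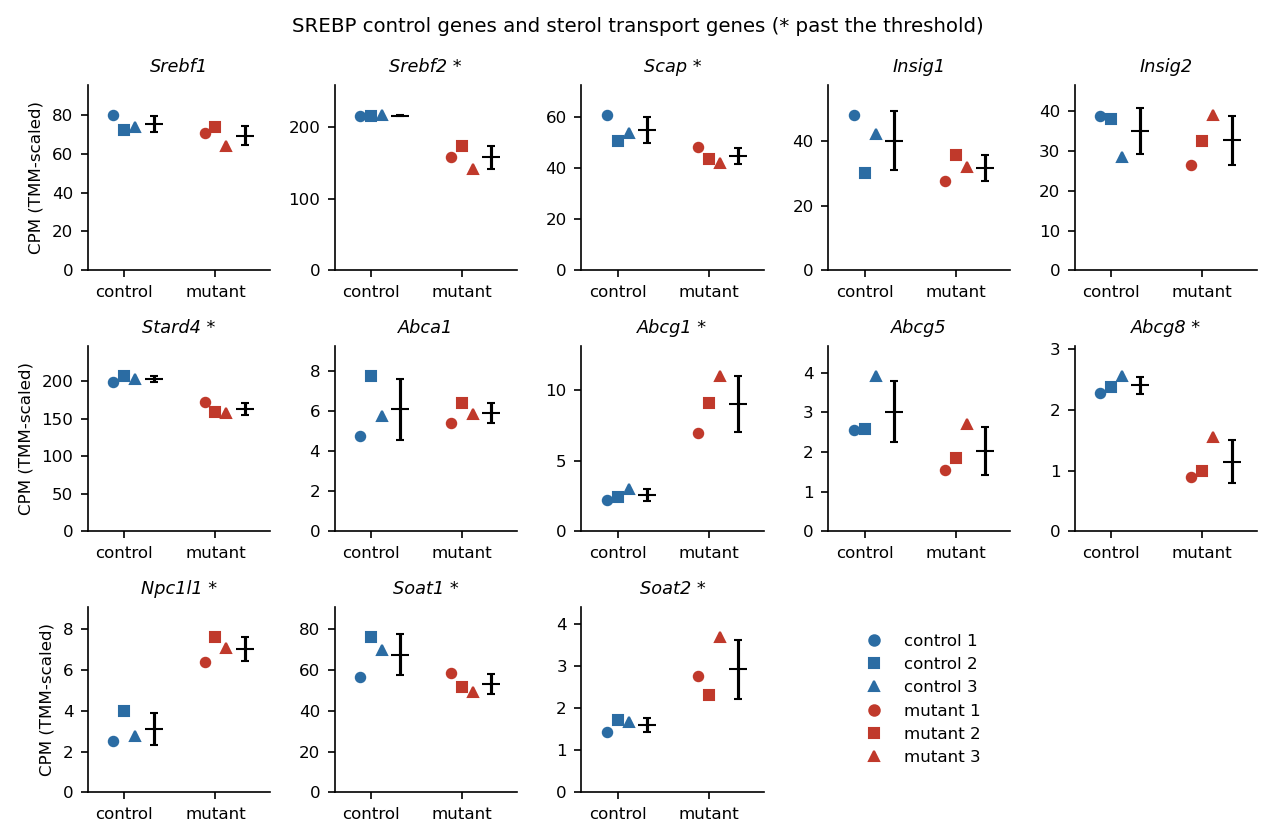
Each panel gives the TMM-scaled CPM of 1 gene in the 3 controls (blue) and 3 mutants (red), with the mean and SD as a black bar, and each axis starts at 0. Stars mark genes past the threshold. Srebf2 and Stard4 separate with little spread, while Abcg1 and Npc1l1 rise and Abca1 overlaps.

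Of 29 apolipoprotein genes 18 were tested, and 4 rose, 3 fell and 11 did not pass, a smaller share of calls than the 46.3% over all genes. Their median log2 fold change was 0.028. The summed level of all 29 fell short of the controls in each mutant, at 255, 293 and 262 CPM against 472, 454 and 472 CPM. Most of that sum was Apob and Apol10a, both of which fell.

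Apob (ENSMUSG00000020609.14, chr12:7977648-8016835, plus strand), the scaffold protein of chylomicrons and very low density lipoprotein, stood at 242, 222 and 232 CPM in controls and 82.5, 69.7 and 76.6 CPM in mutants. The groups were far apart, a 3.04-fold fall with the smallest adjusted p of all these genes (log2 fold change -1.60, SE 0.083, adjusted p = 8.09e-07). Of the lipoprotein assembly genes, which moved in both directions and are counted below, several act beside Apob. Mttp, the transfer protein that lipidates it, stood at 10.03, 6.70 and 8.93 CPM in controls and 2.28, 2.40 and 1.99 CPM in mutants (log2 fold change -1.95, SE 0.19, adjusted p = 4.16e-05), while P4hb, the gene of its partner subunit, did not pass (adjusted p = 0.544). Prap1, a lipid-binding protein of the ER that aids this step, stood at 21.5, 35.1 and 22.9 CPM in controls and 5.21, 4.59 and 4.39 CPM in mutants (log2 fold change -2.49, SE 0.19, adjusted p = 9.16e-06). Fabp1, a fatty acid carrier, was near the floor in mutants, at 1.31, 0.356 and 0.935 CPM in controls and 0.0772, 0.120 and 0 CPM in mutants (adjusted p = 0.00304). Mogat2, which remakes triglyceride in enterocytes, stood at 4.79, 3.85 and 4.22 CPM in controls and 2.01, 2.08 and 1.88 CPM in mutants (adjusted p = 8.28e-04). Dgat2 and Agpat2, also of triglyceride synthesis, rose, with log2 fold changes of 0.62 (adjusted p = 0.00199) and 0.61 (adjusted p = 0.00161), whereas Fabp2, another carrier, stood at 629, 331 and 448 CPM in controls and 453, 510.1 and 519 CPM in mutants and did not pass (adjusted p = 0.770). Absorptive colonocyte markers shared the direction of Apob between groups. Of 10 markers 6 fell and 4 did not pass, beside 22.8% lower over all genes. The summed level of these markers was 11567, 12177 and 12728 CPM in controls and 4821, 6215 and 5252 CPM in mutants. Among the mutants the sum was highest in mutant 2, where Apob was lowest, and lowest in mutant 1, where Apob was highest. Single markers ran from a log2 fold change of -1.94 (Cyp2c55) to -0.089 (Saa1), and none was at 0 in any library. Their part in the Apob values was not tested.

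Genes of the chromosome 9 cluster, which encode proteins of chylomicrons and HDL, were low and uneven among controls. Apoa1, the main protein of HDL, stood at 11.8, 1.51 and 8.03 CPM in controls and 2.97, 1.84 and 1.15 CPM in mutants. Control 2 lay inside the mutant range, while control 1 and control 3 were higher (log2 fold change -1.86, SE 0.62, adjusted p = 0.0320). Its call was lost without control 1, control 3, mutant 2 or mutant 3 (adjusted p = 0.0727 to 0.132), with limma-voom (adjusted p = 0.156) and with DESeq2 (adjusted p = 0.0638). With mutant 3 as the lone mutant the Apoa1 call was lost too, at a log2 fold change of -2.66. Apoa4, an apolipoprotein of fat-fed enterocytes, stood at 10.3, 2.13 and 7.19 CPM in controls and 7.22, 3.00 and 2.81 CPM in mutants, with overlap (adjusted p = 0.369), and 60.9% of its 50-base words lie in other annotated genes too. Apoa5, an activator of lipoprotein lipase, shared 16.3% of its 50-base words with another annotated gene and rose from few counts. Its raw counts were 11, 1 and 4 in controls and 12, 12 and 20 in mutants (log2 fold change 1.62, SE 0.58, adjusted p = 0.0431). The call was lost without any library other than control 1 (adjusted p = 0.0732 to 0.122) and with DESeq2 (adjusted p = 0.0673). With mutant 3 as the lone mutant the Apoa5 call was lost too, at a log2 fold change of 1.73. Apoc3, of the same cluster, was not tested, with raw counts of 13, 0 and 0 and 0, 0 and 2. The small intestinal gene Lct was uneven in the same way, at 2.54, 0.356 and 1.22 CPM in controls and 0.0772, 0.280 and 0.246 CPM in mutants. Control 1 was highest and control 2 lowest of the controls for Apoa1, Apoa4, Apoa5 and Lct.

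**Figure D3:**
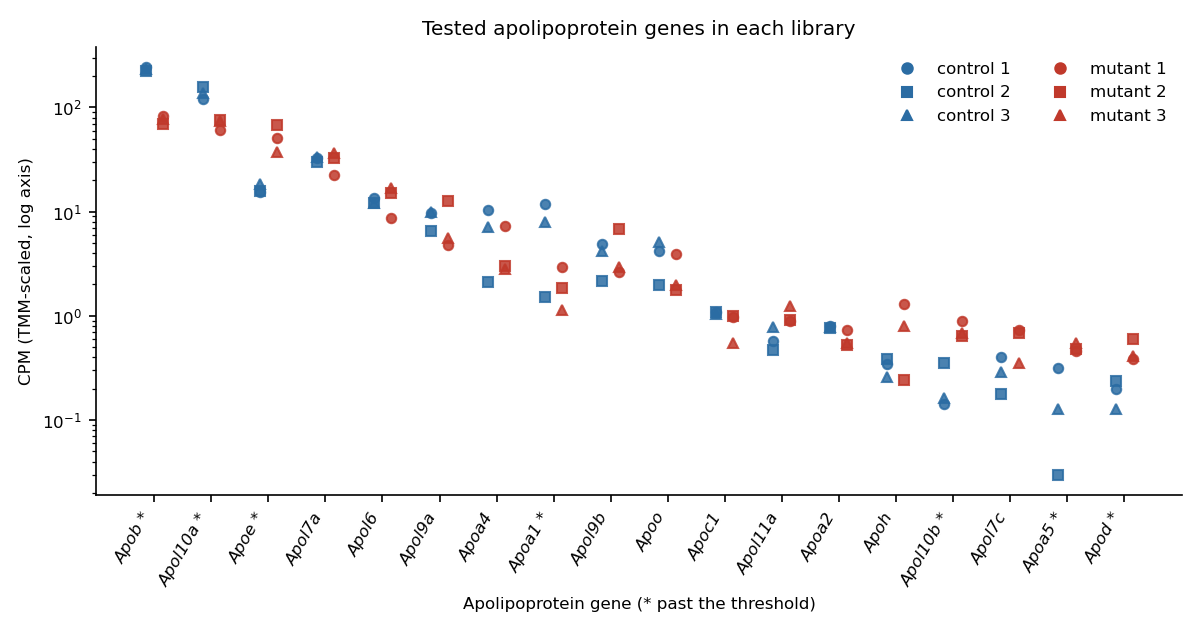
The 18 tested apolipoprotein genes are ordered by mean level, with the TMM-scaled CPM of each control (blue) and mutant (red) library on a log axis, and stars at genes past the threshold. Apob and Apol10a are lower and Apoe higher in all mutants, while Apoa1 and Apoa4 spread widely among controls.

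Apoe (ENSMUSG00000002985.16, chr7:19696109-19699188, minus strand), the ligand of remnant clearance that macrophages and some epithelia secrete, stood at 15.3, 15.8 and 18.4 CPM in controls and 51.3, 67.8 and 37.4 CPM in mutants. Every mutant was at least 2-fold above every control, a 3.16-fold rise (log2 fold change 1.66, SE 0.19, adjusted p = 8.74e-05). The smallest value without a library was 1.42, and without mutant 1 and mutant 2 it was 1.15 (adjusted p = 2.43e-04). Beside 23.5% higher over all genes, 13 of 15 macrophage and dendritic cell markers rose with it, 1 fell (C1qa) and 1 did not pass (Ptprc). Their summed level was 51.8, 44.1 and 47.2 CPM in controls and 84.4, 117 and 88.6 CPM in mutants, and Trem2 was at 0 in control 2. Lyz2, a lysozyme of macrophages, stood at 4.13, 3.68 and 4.45 CPM in controls and 16.8, 25.4 and 12.8 CPM in mutants, and C1qb, a complement subunit, at 0.969, 1.04 and 0.645 CPM in controls and 2.47, 4.23 and 2.32 CPM in mutants. Gpnmb, a gene of lipid-laden macrophages, stood at 0.0855, 0.178 and 0.129 CPM in controls and 2.70, 3.28 and 2.65 CPM in mutants. The part of these cells in the Apoe values was not tested. Apoc1, a neighbour of Apoe in the same cluster and also a macrophage product, stood at 1.08, 1.10 and 1.03 CPM in controls and 0.965, 0.999 and 0.546 CPM in mutants and did not pass (adjusted p = 0.340).

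**Figure D4:**
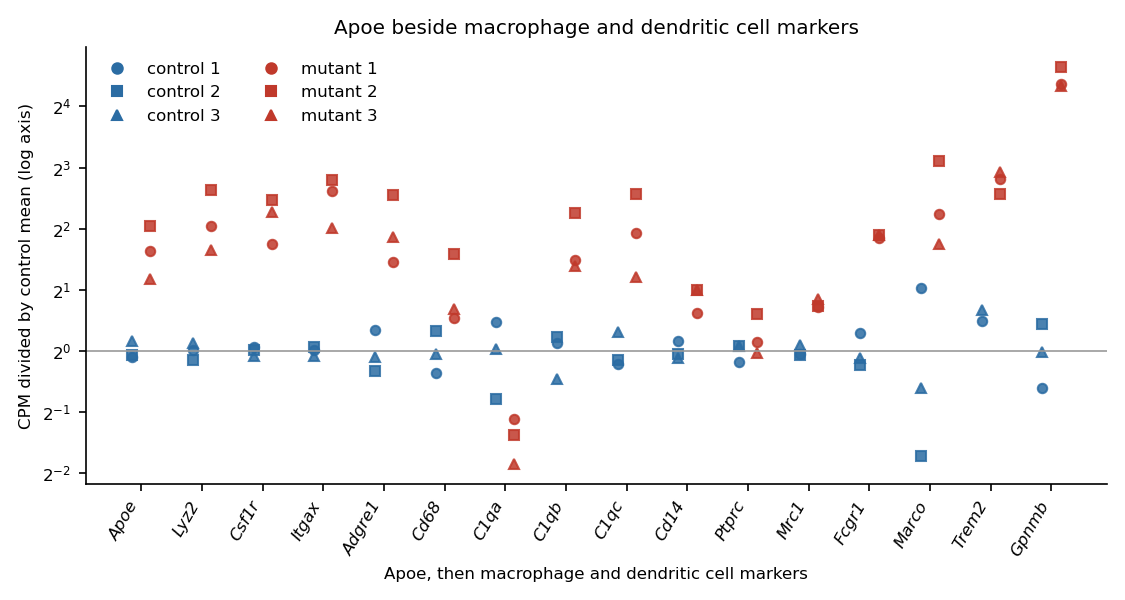
CPM of Apoe and of 15 macrophage and dendritic cell markers is shown for each control (blue) and mutant (red) library, divided by the mean of the controls, on a log axis. The control 2 value of Trem2, which is 0, is not drawn. Mutants lie above controls for Apoe and for 13 markers, while C1qa lies below and Ptprc overlaps.

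The Apol genes encode intracellular relatives of apolipoprotein L, clustered on chromosome 15 apart from Apol7d. Apol10a (ENSMUSG00000050982.13, chr15:77477047-77491069, plus strand) was the abundant one. It stood at 121, 156 and 138 CPM in controls and 60.6, 75.4 and 73.6 CPM in mutants, a 1.98-fold fall with no overlap (log2 fold change -0.98, SE 0.11, adjusted p = 9.28e-05). Its close relative Apol10b went the other way at a far lower level, with raw counts of 5, 12 and 5 in controls and 23, 16 and 25 in mutants (log2 fold change 1.72, SE 0.42, adjusted p = 0.00828). Without mutant 1 and mutant 2 that call was lost (adjusted p = 0.104). Both share sequence with relatives, 16.9% and 6.11% of their 50-base words, so their split of reads is uncertain. Apol7a, next in level, stood at 33.0, 29.97 and 33.1 CPM in controls and 22.5, 32.5 and 36.8 CPM in mutants (adjusted p = 0.767), and Apol6 at 13.5, 12.1 and 11.99 CPM in controls and 8.68, 15.1 and 16.9 CPM in mutants (adjusted p = 0.674). Mutant 1 was the lowest library for both, and without it Apol6 passed as higher (log2 fold change 0.34, adjusted p = 0.0395). The interferon-induced pair Apol9a and Apol9b stood at 9.66, 6.52 and 9.96 CPM in controls and 4.78, 12.6 and 5.62 CPM in mutants and at 4.90, 2.16 and 4.19 CPM in controls and 2.62, 6.79 and 2.95 CPM in mutants. Mutant 2 was highest for both, neither passed (adjusted p = 0.664 and adjusted p = 0.817), and without mutant 2 Apol9a passed as lower (adjusted p = 0.0219). Of the Apol9b words 52.3% occur in Apol9a.

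The remaining apolipoprotein genes were low. Apod, a lipocalin made by fibroblasts and glia, rose on raw counts of 7, 8 and 4 in controls and 10, 15 and 15 in mutants (log2 fold change 1.26, SE 0.42, adjusted p = 0.0326). It lost its call without any library other than mutant 1 (adjusted p = 0.0561 to 0.124) and with DESeq2 (adjusted p = 0.116). With mutant 3 as the lone mutant the Apod call was lost too, at a log2 fold change of 1.07. Of 8 fibroblast markers 5 fell and 1 rose (Pdgfrb), beside 22.8% lower and 23.5% higher over all genes. The summed level of these markers was 211, 225 and 243 CPM in controls and 116, 110.4 and 127 CPM in mutants. Apoh did not pass (adjusted p = 0.0841), but passed as higher without mutant 2, its lowest mutant (adjusted p = 0.0120). Apoo, which encodes a mitochondrial protein, stood at 4.16, 1.99 and 5.06 CPM in controls and 3.94, 1.76 and 1.96 CPM in mutants (adjusted p = 0.267). Apoa2, Apol11a and Apol7c did not pass either, with adjusted p of 0.318, 0.0717 and 0.0972. The 11 genes not tested were Apoc2, Apoc3, Apoc4, Apof, Apom, Apon, Apol7b, Apol7d, Apol7e, Apol8 and Apol11b, none above 0.484 CPM in any library.

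Other genes of sterol and lipid handling were counted from lists, with up to 4 genes of smallest p named from each. Over all tested genes 22.8% were called lower, 23.5% higher and 46.3% either way. Of 9 other synthesis genes 3 fell, 1 rose and 5 did not pass (median log2 fold change -0.20). Por, which feeds electrons to Cyp51 and Sqle, stood at 234, 242 and 242 CPM in controls and 166, 169.7 and 173 CPM in mutants and fell with no overlap (log2 fold change -0.50, SE 0.067, adjusted p = 2.49e-04). Cyb5b, a cytochrome b5 gene, fell too (log2 fold change -0.30, adjusted p = 0.0231). Tmem97, an SREBP target that rises when sterol is depleted, was the exception, at 13.8, 13.6 and 13.3 CPM in controls and 23.3, 22.4 and 24.2 CPM in mutants (log2 fold change 0.78, SE 0.080, adjusted p = 5.21e-05). So Srebf2 and 8 enzyme genes were lower in libraries in which Tmem97 was higher.

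In the list of SREBP processing and sterol-dependent degradation 5 of 9 rose and 2 fell (median log2 fold change 0.27). Shares over all tested genes were 23.5% higher and 22.8% lower. Ufd1, a cofactor in the degradation of ER proteins, rose by 0.29 and Mbtps1, the first protease that cuts SREBP, by 0.29 on the log2 scale (adjusted p = 0.00452 and adjusted p = 0.00545). Erlin1, an ER scaffold that restrains SREBP, fell from 74.4 ± 3.59 to 50.4 ± 4.44 CPM (adjusted p = 4.11e-04). Of 14 fatty acid genes that SREBP-1 drives, 8 fell and 2 rose (median -0.38). Elovl6, Acss2 and Fads2 fell, with log2 fold changes of -0.71, -0.69 and -0.68 (adjusted p = 7.04e-05, 1.26e-04 and 0.00164), while the desaturase gene Fads1 rose by 0.47 (adjusted p = 0.00248).

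Among 12 LXR and oxysterol genes 9 were tested, of which 5 fell and 4 did not pass (median -0.35), beside 22.8% lower over all genes. Nr1h3, which encodes LXR alpha, stood at 11.4, 10.1 and 11.6 CPM in controls and 4.36, 5.43 and 4.34 CPM in mutants, and Cyp27a1, which makes the LXR ligand 27-hydroxycholesterol, at 13.7, 14.0 and 14.6 CPM in controls and 5.40, 5.91 and 6.44 CPM in mutants. Both fell by more than 2-fold (log2 fold change -1.23, SE 0.14, adjusted p = 1.00e-04, and log2 fold change -1.25, SE 0.12, adjusted p = 2.70e-05). Nr1h2, the gene of LXR beta, fell by 0.57 and the corepressor gene Ncor1 fell by 0.48 on the log2 scale (adjusted p = 6.80e-04 and adjusted p = 0.00154). Abcg1, an LXR target, was higher in the same libraries, and Abca1 did not pass.

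Of 22 tested lipoprotein assembly genes 10 fell, 4 rose and 8 did not pass (median -0.23), beside 22.8% lower and 23.5% higher over all genes. After Prap1 and Mttp, the smallest p-values were those of Pdia4, an ER disulfide isomerase that rose from 244 ± 19.3 to 414 ± 14.2 CPM (adjusted p = 6.52e-05), and Gpat3, an acyltransferase that fell from 19.6 ± 0.341 to 11.8 ± 0.796 CPM (adjusted p = 1.52e-04). In lipoprotein uptake and lysosomal sterol handling 7 of 20 fell and 4 rose (median -0.11), beside the same shares over all genes. Cubn, an endocytic receptor that binds HDL proteins, stood at 42.9, 43.7 and 43.5 CPM in controls and 14.0, 12.7 and 13.0 CPM in mutants, a 3.27-fold fall (log2 fold change -1.71, SE 0.074, adjusted p = 2.97e-07). Lpl, the lipase of circulating lipoproteins, fell from 51.6 ± 3.95 to 10.7 ± 4.37 CPM (adjusted p = 8.18e-05) and Scarb2, a lysosomal membrane protein, from 233 ± 4.97 to 134 ± 14.7 CPM (adjusted p = 7.55e-05). Lrp8, a receptor for Apoe, rose by 1.36 on the log2 scale, from 9.01 ± 1.34 to 23.1 ± 4.72 CPM (adjusted p = 1.29e-04).

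**Figure D5:**
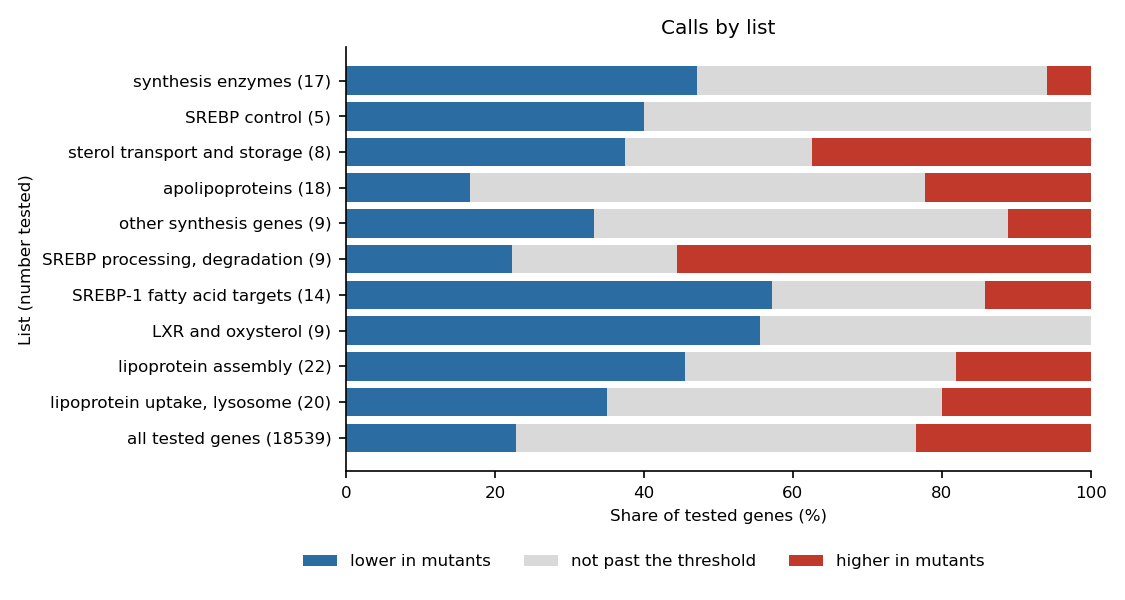
Bars give the share of tested genes in each list that was lower (blue), higher (red) or not past an adjusted p of 0.05 (grey), with the number tested in brackets. All 18539 tested genes, with 22.8% lower and 23.5% higher, form the bottom bar.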

How the data were processed

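Bulk poly(A) RNA-seq of 6 libraries was used, 3 a group, 1 table each. The deposited values are raw fragment counts per gene. Poly(A) RNA was taken with Dynabeads and libraries were made with a SMARTer Stranded kit, per the labels' protocols. Trim Galore 0.6.5, STAR 2.6.1d, GRCm38 and edgeR are named in the submitters' processing notes. Fragments were counted with featureCounts 1.6.4 on GENCODE vM25, by the strand of read 1 and with no option for reads with several alignments or genes, per the file headers, so near-copies can lose reads.

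Counts were fitted with edgeR 4.0.16 in R 4.3.3. Genes were kept by filterByExpr (minimum count 10, minimum total 15), scaled by TMM and tested with the quasi-likelihood F test on genotype. All adjusted p in the text are from that test, adjusted by Benjamini-Hochberg over the 18539 genes, unless another tool is named. A positive log2 fold change means higher in mutants, and "passed", "rose" and "fell" mean an adjusted p under 0.05. Alternatives included other scalings and filters, limma 3.58.1 (voom), DESeq2 1.42.0, each library left out, and mutant 1 and mutant 2 left out together. Sequence sharing used 50-base words of GENCODE vM21 transcripts, of the same genome build.

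The genes and lists were chosen with earlier results of these data known, so no list was tested as a set. Library values are given for genes that passed with a mean of at least 1 CPM in either group, for low genes that passed as raw counts, and for others whose role is needed beside a neighbour. From each other list up to 4 genes of smallest p are named. A few of these are not reported here. No columns were left unmapped and no genome sequence was used beyond the RefSeq windows.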

Additional observations from a re-analysis of the deposited data

How the results depend on the processing

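The 8 genes that rose and 16 that fell kept their direction in each alternative that tested them. Of 857 fits 20 changed a sign, all for genes that did not pass. The 857 include the threshold of 0.01 and the test against a 1.5-fold change. Both keep the log2 fold changes of the main fit, so no sign could change there. Rises numbered 5 under a filter of at least 1 CPM in 3 libraries, 5 at a threshold of 0.01, 4 against a 1.5-fold change and 5 without mutant 1 and mutant 2. Falls numbered 10 with total counts only, 8 at 0.01 and 2 against 1.5-fold. Enzymes that rose numbered 2 with total counts and 0 against 1.5-fold, and those that fell numbered 4 with total counts, 3 at 0.01 and 0 against 1.5-fold. Called SREBP control genes numbered 1 with total counts, 1 at 0.01 and 0 against 1.5-fold, and transport genes 2 against 1.5-fold. Called apolipoprotein genes numbered 4 each under the 1 CPM filter, with DESeq2, at 0.01 and against 1.5-fold, and 3 without mutant 1 and mutant 2. Over all genes 1720 rose and 1027 fell against 1.5-fold. Leaving out each library gave 6 to 8 rises and 9 to 15 falls, 1 to 2 and 3 to 8 among enzymes, 1 to 3 calls in SREBP control, 5 to 6 in transport, 4 to 7 in apolipoproteins, and 3574 to 4335 rises and 3448 to 4236 falls over all genes. Stricter thresholds and filters make fewer calls by construction, and for the other settings the cause was not tested.

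Signs changed for Hsd17b7 (0.063 with total counts, 0.017 with the 1 CPM filter), Abca1 (0.033 with total counts), Apol7a (0.016 with total counts, 0.17 without mutant 1 and mutant 2), Insig2 (0.12) and Apol9b (-0.38) in that last setting. Leave-one-out ranges that crossed 0 were -0.033 to 0.18 for Msmo1, -0.067 to 0.066 for Hsd17b7, -0.015 to 0.12 for Sc5d, -0.25 to 0.020 for Insig2, -0.21 to 0.15 for Abca1, -0.078 to 0.34 for Apol6, -0.22 to 0.11 for Apol7a, -0.74 to 0.038 for Apol9a and -0.43 to 0.36 for Apol9b.

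With the replicate number as a block 6 genes rose and 14 fell, and over all genes 3789 and 3614. Same-numbered libraries did not deviate together (r = -0.12, -0.0652 and -0.138 across genes), no library correlated best with its own number, and the numbers were not taken as pairs. Apoa5, Apod and Apol10b rest on at most 25 counts in any library, where counting error limits the values.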

Other observations

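Genes of the small intestine were measured in these colonic libraries. Fabp6, the bile acid carrier of the ileum, stood at 1.51, 2.43 and 2.19 CPM in controls and 30.1, 33.9 and 61.9 CPM in mutants (log2 fold change 4.37, SE 0.30, adjusted p = 5.16e-06). Every mutant was more than 10-fold above every control. Rbp2, a retinol carrier, stood at 18.7, 13.6 and 14.1 CPM in controls and 17.8, 25.9 and 27.5 CPM in mutants and rose (log2 fold change 0.62, SE 0.17, adjusted p = 0.0152), with mutant 1 inside the control range. The disaccharidase genes Sis and Mgam went the other way, with Sis at 33.3, 29.8 and 34.5 CPM in controls and 12.2, 12.1 and 14.8 CPM in mutants (log2 fold change -1.31, SE 0.10, adjusted p = 1.09e-05) and Mgam at 601, 619 and 615 CPM in controls and 357, 360.4 and 347 CPM in mutants (log2 fold change -0.79, SE 0.071, adjusted p = 2.47e-05). Of 10 such markers 3 rose, 4 fell and 3 did not pass, beside 23.5% higher and 22.8% lower over all genes. These markers therefore did not share a direction in the mutants, nor did the lipid genes of the enterocyte, in which Npc1l1 and Soat2 rose while Apob and Mttp fell.

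Ttr and Tat, taken as hepatocyte markers, were well above the floor in crypts. Tat, a tyrosine aminotransferase, stood at 38.2, 36.1 and 42.8 CPM in controls and 48.1, 106 and 109 CPM in mutants and rose (log2 fold change 1.17, SE 0.25, adjusted p = 0.00407), and Ttr, a thyroxine carrier, stood at 26.1, 15.6 and 19.2 CPM in controls and 12.6, 18.2 and 16.7 CPM in mutants (adjusted p = 0.147).

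Among controls Fabp1, like Apoa1, Apoa4, Apoa5 and Lct, was highest in control 1 and lowest in control 2. Apoc3 was counted 13 times in control 1 and 0 times in control 2 and control 3. Cyp2c55, a colonocyte marker, had the opposite order, at 1255, 2790 and 2034 CPM.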
